A study of Mus musculus with 15 samples.

Results

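Primary mouse hepatocytes made to express the human bile acid receptor isoform FXRα3 were compared with hepatocytes made to express the isoform FXRα1. Both isoforms carry the short insert beside the DNA-binding domain, and they differ in the N-terminus, which is the longer one in FXRα3. The comparison set the 3 arrays titled FXRα3 against the 3 arrays titled FXRα1, which are 6 of the 15 arrays in the series. The spread of each gene was estimated from all 15. Each gene was read through 1 probe set, chosen as the brightest over all arrays among those annotated with that symbol alone, which left 18820 genes.

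The hepatocytes came from male C57BL/6J mice, whose age is not given in the labels, and were plated on collagen. Each culture received an adenovirus overnight, and RNA was taken 36 h after transduction, following a period without dexamethasone and insulin. The FXRα1 and FXRα3 viruses each carried 1 human isoform together with GFP driven by its own CMV promoter, and the control virus carried GFP alone. The FXRα2 and FXRα4 groups, of 3 arrays each, received the isoforms that lack the insert, with the shorter and the longer N-terminus respectively. All groups therefore carried GFP and virus, and all kept the mouse receptor of the cells. The labels number 3 arrays per group and name no animal or culture behind each, so the p-values here cover only how far these arrays differ from one another, which may be technical. The amount of each human receptor is not measured by the genes used here. In such RNA from whole cultures, fewer cells of a type and less RNA per cell cannot be told apart.

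FXR is a nuclear receptor that is activated by bile acids and pairs with RXR on DNA, most often at an inverted repeat of the AGGTCA half-site with a single base between them, called IR1. In hepatocytes it is known for inducing the bile salt export pump Abcb11 and the repressor SHP (Nr0b2), for holding down bile acid synthesis, and for acting on lipid and glucose metabolism. The isoforms arise from 2 promoters, which set the N-terminus, and from a splice choice that adds or leaves out the insert. The N-terminus holds a transactivation region, and the comparison of FXRα3 with FXRα1 asks how gene expression differs with it when the insert is present.

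Values are the deposited ones, on a scale taken here as log2, so that a difference of 1 is 2-fold. The 2 groups lay close together: over all genes, arrays correlated at 0.998 to 0.999 within FXRα3, at 0.997 to 0.998 within FXRα1 and at 0.996 to 0.998 between them, as a description across genes. No 2 arrays held identical values. Hepatocyte markers averaged 10.4 to 10.5 on these 6 arrays, against 6.20 to 6.26 for all genes, so the labelled cell type had its markers. The mean levels of the markers of other liver cells were 4.25 to 4.38 for macrophages, 4.8 to 4.95 for sinusoidal endothelium, 4.20 to 4.29 for stellate cells, 5.2 to 5.33 for cholangiocytes and 3.57 to 3.69 for lymphocytes and neutrophils.

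The promoter of Abcb11 is shown because this gene had the largest difference of all. It is the RefSeq sequence of the GRCm38.p6 build, given 5′ to 3′ on the gene's strand over the 250 bases before its annotated start, in lower case with its IR1-like stretch in capitals.
Abcb11 (chr2:69342617-69342866, minus strand): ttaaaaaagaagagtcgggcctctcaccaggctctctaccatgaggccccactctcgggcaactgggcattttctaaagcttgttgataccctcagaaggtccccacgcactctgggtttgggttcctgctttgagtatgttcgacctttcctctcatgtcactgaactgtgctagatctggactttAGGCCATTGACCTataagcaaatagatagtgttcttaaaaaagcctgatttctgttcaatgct

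The search took windows from 250 bases before to 50 bases after RefSeq gene starts, and read 2 half-sites around any 1 base on both strands, letting up to 2 of the 12 half-site bases differ. Such a stretch was present in 15 of 938 promoters of genes that were lower with FXRα3 (1.6%) and in 1 of 442 promoters of genes that were higher (0.226%), against 198 of 18141 promoters of all genes tested (1.09%). An exact repeat stood in none of the promoters of genes that differed and in 2 of all. The single half-site AGGTCA, on either strand and counted also within a repeat, was found in 15.7%, 10.4% and 14.3% of the 3 sets. These shares cover the genes matched to RefSeq promoters, which were 703 of 875 lower, 335 of 416 higher and 14739 of 18820 in all. A match is a likeness of letters and was not tested for binding. The 4 stretches that came within 1 base of the repeat are printed here, with Bhmt, an enzyme of methionine metabolism among the lower genes, and Itga3, an integrin subunit and the only match among the higher genes, at 2 bases from it. Half-sites are in capitals and the base between them is in lower case.
Abcb11 (chr2:69342667-69342679, minus strand): AGGCCAtTGACCT
Steap3 (chr1:120270364-120270376, minus strand): AGGTCAaTGACCG
Rdh9 (chr10:127776326-127776338, plus strand): AGGTCAaTGACCA
Tbc1d14 (chr5:36582543-36582555, minus strand): AGGTCAaTGATCT
Bhmt (chr13:93637818-93637830, minus strand): AGGTCAgAGGCCT
Itga3 (chr11:95069246-95069258, minus strand): AGGTCTtTGTCCT

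These began 63 bases before the gene start in Abcb11, 106 in Steap3, 79 in Rdh9, 158 in Tbc1d14, 72 in Bhmt and 60 in Itga3. Steap3, a metalloreductase of iron uptake, averaged 7.71 ± 0.03 (SD, n = 3) with FXRα3 and 8.76 ± 0.04 (SD, n = 3) with FXRα1, a difference of -1.06 ± 0.06 (SE, adjusted p = 4.62e-11 by limma). Steap3, Rdh9, Tbc1d14 and Bhmt are named for these stretches, after their values were seen. The other 4 differed by less: -0.48 for Rdh9 (adjusted p = 0.0401), -0.29 for Tbc1d14 (0.0327), -0.49 for Bhmt (0.012) and 0.28 for Itga3 (0.00255), by limma. The calls of Rdh9, Tbc1d14 and Bhmt were lost without single arrays (adjusted p up to 0.256, 0.164 and 0.0895), and a dimmer second probe set for Bhmt read -0.09 (adjusted p = 0.812 by limma over all probe sets).

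More genes were lower than higher with FXRα3, and most differences were small. By limma with Benjamini-Hochberg adjustment, 1291 of the 18820 genes (6.86%) differed at an adjusted p under 0.05. Of these, 416 (2.21%) were higher and 875 (4.65%) were lower with FXRα3. The difference reached 2-fold for 2 higher genes (0.0106%) and 17 lower genes (0.0903%). The 3 arrays of one group lay wholly above those of the other for 3848 genes (20.4%), with FXRα3 above for 1527 (8.11%) and below for 2321 (12.3%). With so few arrays, some unchanged genes also separate in this way, so this count is not one of differing genes. Calls lay mostly among brighter genes. With the dimmest 50% of genes left out, 9410 were tested, and 498 were higher and 1035 lower. These calls included 1189 of the 1291. The shares over all genes set beside the lists below count the dim genes too, while many lists hold mostly brighter ones. How far level accounts for an excess over those shares was not tested. Over all genes the median difference was -0.01. The count of 1291 fell to 831 without FXRα3 replicate 1 and to 780 without FXRα3 replicate 2. The higher genes numbered 241, 237 and 255 without FXRα1 replicate 1, FXRα3 replicate 2 and FXRα3 replicate 3. The lower genes numbered 1471 and 504 without FXRα1 replicates 2 and 3, and 533 and 543 without FXRα3 replicates 1 and 2. Leaving out FXRα1 replicate 3 gave the most even split, with 44.6% of the called genes higher. The balance of directions also moved with the scaling: 32.2% of the called genes were higher as deposited, 45.7% after quantile normalization and 58.6% with each array centred on its 75th percentile, which moved the median of all genes to 0.05.

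**Figure D1:**
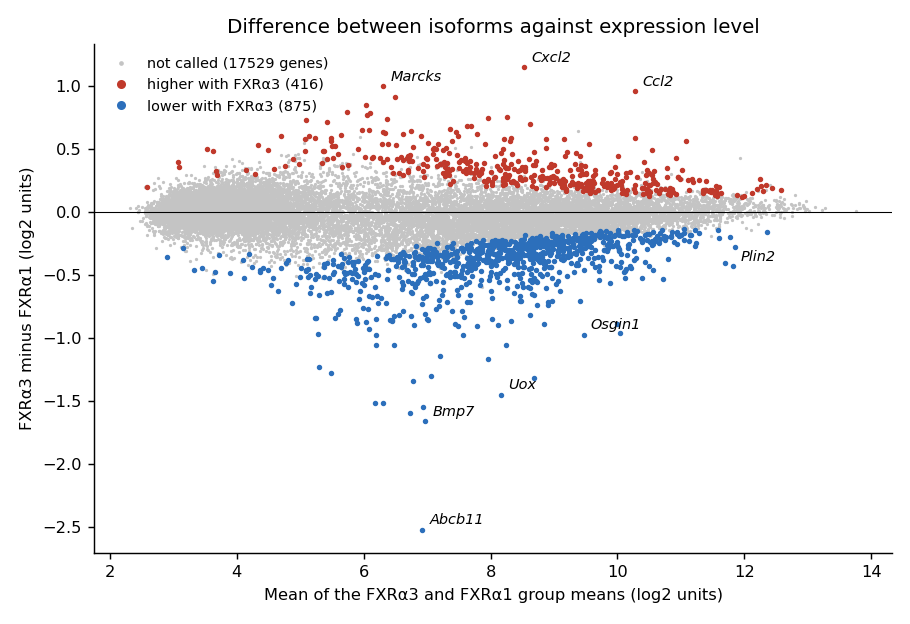
Each point is 1 gene, with the mean of the FXRα3 and FXRα1 group means on the x axis and FXRα3 minus FXRα1 on the y axis, both in log2 units; red and blue mark the 416 higher and 875 lower genes at an adjusted p under 0.05. Abcb11 lies apart at the bottom at -2.52, and only Cxcl2 and Marcks reach 1 at the top.

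Abcb11, the bile salt export pump of the canalicular membrane, was the gene that separated the 2 isoforms most. It read 5.53, 5.51 and 5.95 on the FXRα3 arrays, 8.27, 7.88 and 8.39 on the FXRα1 arrays and 5.27, 5.04 and 5.21 on the GFP arrays. Every FXRα1 array was therefore more than 1 log2 unit above every FXRα3 array, and the FXRα3 arrays lay just above GFP. The difference was -2.52 ± 0.13 (SE), or 5.73-fold (adjusted p = 2.96e-11 by limma). Against the same GFP arrays, FXRα1 stood at 3.01 ± 0.13 (adjusted p = 3.5e-13 by limma) and FXRα3 at 0.49 ± 0.13 (adjusted p = 0.00928 by limma).

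Bmp7, a secreted ligand of the BMP family, read 6.01, 5.98 and 6.45 with FXRα3, 7.85, 7.55 and 8.01 with FXRα1 and 4.91, 4.97 and 4.75 with GFP. Both isoforms were above GFP on every array, and FXRα3 was 3.15-fold lower than FXRα1 (-1.66 ± 0.13 SE, adjusted p = 1.96e-08 by limma). A second, dimmer Bmp7 probe set, with a mean of 3.49, read a difference of 0.19 (adjusted p = 0.218 by limma over all probe sets). Nppb, which encodes the brain natriuretic peptide, read 6.28, 6.34 and 5.88 with FXRα3, 7.56, 7.72 and 7.86 with FXRα1 and 6.34, 6.51 and 6.31 with GFP. FXRα1 thus stood alone above the 2 other groups for this gene (-1.55 ± 0.11 SE, adjusted p = 9.86e-09 by limma). FXRα3 also lay nearer to GFP than to FXRα1 for the transporter Flvcr2, at 5.29 to 5.61 with FXRα3, 6.71 to 7.16 with FXRα1 and 4.96 to 5.22 with GFP, and for the kinase Sgk2, at 5.35 to 5.77, 6.90 to 7.14 and 5.29 to 5.36. Both differed by -1.51 (adjusted p = 5.85e-08 and 9.83e-10 by limma).

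Enzymes of urate breakdown were lower with FXRα3. Uox, urate oxidase, read 7.26, 7.47 and 7.57 with FXRα3, 8.86, 8.79 and 9.0 with FXRα1 and 8.19, 7.68 and 8.03 with GFP. FXRα3 was thus below GFP and FXRα1 above it, and the groups did not overlap (-1.45 ± 0.12 SE, adjusted p = 9.33e-08 by limma). Urad, the decarboxylase that ends the pathway, read 6.09, 5.83 and 5.87 with FXRα3, 7.67, 7.42 and 7.48 with FXRα1 and 7.39, 7.18 and 7.31 with GFP, a difference of -1.59 ± 0.10 (adjusted p = 4.27e-10 by limma). Urah, the hydrolase between them, was picked out after these values were seen: it averaged 7.4 ± 0.04 (SD, n = 3) with FXRα3 and 7.87 ± 0.09 (SD, n = 3) with FXRα1 (-0.47, adjusted p = 0.000146 by limma).

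The rest of the 12 largest differences towards FXRα1 were in 4 enzymes and 1 structural protein. Acot4, a peroxisomal acyl-CoA thioesterase, read 6.01, 6.14 and 6.16 with FXRα3, 7.47, 7.31 and 7.56 with FXRα1 and 6.75, 6.92 and 7.08 with GFP (-1.34 ± 0.10 SE, adjusted p = 7.8e-09 by limma). Adssl1, an adenylosuccinate synthase, lay at 6.28 to 6.50, 7.62 to 7.86 and 5.10 to 5.54 in the same order, so both isoforms were above GFP (-1.30, adjusted p = 3.38e-07 by limma). Acsm5, a medium-chain acyl-CoA synthetase, lay at 4.70 to 4.92, 5.79 to 6.47 and 4.86 to 5.08 (-1.28, adjusted p = 1.12e-05 by limma). Ddc, the aromatic amino acid decarboxylase, lay at 4.61 to 4.75, 5.68 to 6.09 and 5.57 to 5.99, so that FXRα3 stood apart from both other groups (-1.22, adjusted p = 2.91e-06 by limma). Flnc, the actin crosslinker filamin C, read 7.33, 7.35 and 7.45 with FXRα3, 8.67, 8.45 and 8.48 with FXRα1 and 6.60, 6.53 and 6.50 with GFP (-1.16 ± 0.08 SE, adjusted p = 7.8e-09 by limma).

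The largest differences towards FXRα3 were smaller, and Cxcl2, a neutrophil chemokine, came first. It read 9.07, 9.06 and 9.18 with FXRα3, 7.94, 7.89 and 8.01 with FXRα1 and 6.89, 6.98 and 6.78 with GFP. The 3 groups formed 3 separate steps, and FXRα3 was 2.22-fold above FXRα1 (1.15 ± 0.09 SE, adjusted p = 1.32e-08 by limma). Ccl2, a monocyte chemokine, read 10.69, 10.94 and 10.65 with FXRα3, 9.75, 9.88 and 9.76 with FXRα1 and 10.44, 10.53 and 10.39 with GFP. Here the FXRα1 arrays lay below GFP and the FXRα3 arrays above it (0.96 ± 0.06 SE, adjusted p = 1.64e-09 by limma). Marcks, an actin-binding substrate of protein kinase C, read 6.68, 6.81 and 6.92 with FXRα3, 5.88, 5.70 and 5.82 with FXRα1 and 5.93, 5.71 and 5.67 with GFP, a difference of 1.00 ± 0.11 (adjusted p = 3.31e-06 by limma).

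Lce1d, a cornified envelope gene of skin, lay at 6.80 to 7.09 with FXRα3, 5.97 to 6.14 with FXRα1 and 4.24 to 4.38 with GFP (0.91, adjusted p = 3.86e-05 by limma). Elovl4, an elongase of very long fatty acids, and Podxl, the sialomucin podocalyxin, made the same 3 steps, with differences between the isoforms of 0.80 and 0.76. In 6 others, namely the germ cell gene Dppa3 (0.77), Dpysl2, a microtubule-binding protein of axon growth (0.75), the chromatin protein Hmga2 (0.74), the integrin subunit Itgb6 (0.73) and the cell cycle repressors E2f7 (0.79) and E2f8 (0.85), the FXRα3 arrays lay above those of both other groups, for E2f7 by less than 0.01 over the highest GFP array. The adjusted p-values of these 8 genes ran from 8.98e-06 to 0.00344 by limma. A second Dppa3 probe set read 0.79 (adjusted p = 0.00122 by limma over all probe sets).

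**Figure D2:**
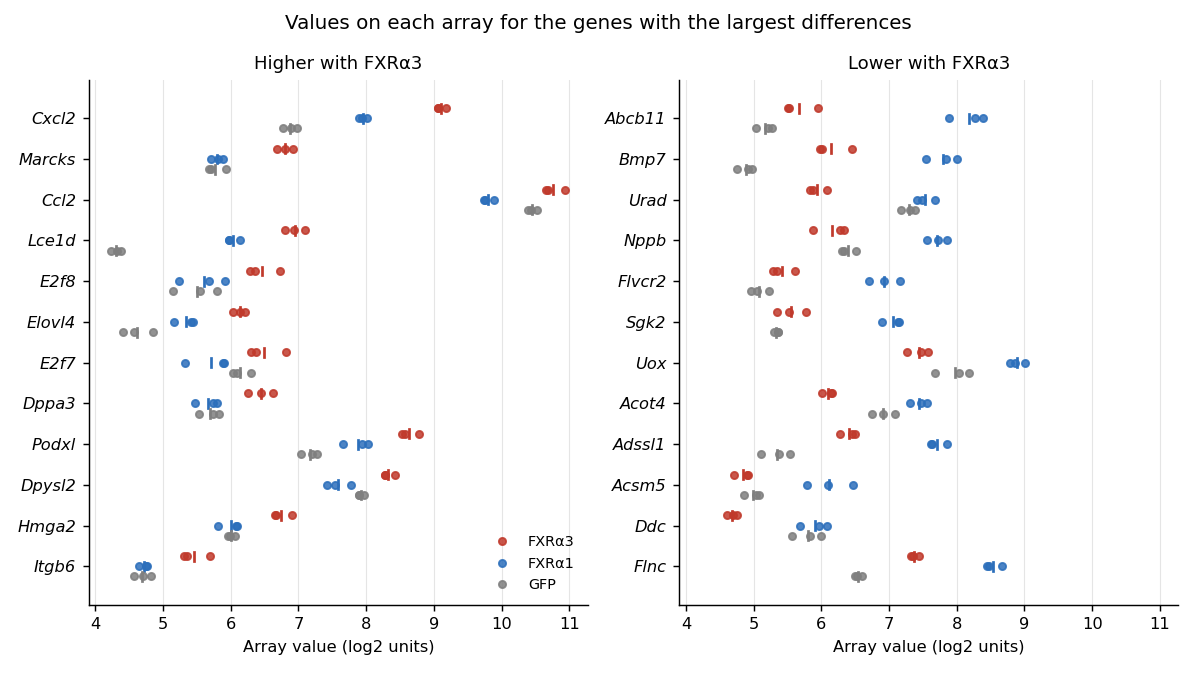
Dots are single arrays (log2 units) of FXRα3 (red), FXRα1 (blue) and GFP (grey) for the 12 genes with the largest called difference in each direction, and short bars are the means of 3 arrays. Genes were taken only where red and blue do not overlap, so that separation was set by the choice. For Abcb11, Nppb, Flvcr2, Sgk2 and Acsm5 the red dots lie near or among the grey ones.

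Nr1h4, the gene of the mouse receptor, read 6.90, 7.0 and 6.96 with FXRα3 and 7.03, 6.94 and 7.08 with FXRα1, beside 6.94 to 7.03 with GFP (difference -0.06 ± 0.07 SE, adjusted p = 0.748 by limma). That probe set was designed for the mouse transcript, and whether it reads the human one was not tested, so it is no check of the transgenes. Among 27 measured FXR targets, 6 were lower with FXRα3 (22.2%, against 4.65% of all genes) and 1 was higher (3.7%, against 2.21%), with a median of -0.04 beside -0.01 over all genes. The median was 0.02 without FXRα1 replicate 3 or FXRα3 replicate 2, and 2 genes were higher without FXRα1 replicate 2 or FXRα3 replicate 3. After Abcb11 the clearest was Osgin1, an inhibitor of growth under oxidative stress, at 9.0, 9.05 and 8.89 with FXRα3, 9.92, 10.01 and 9.93 with FXRα1 and 10.85, 10.83 and 10.87 with GFP (-0.97 ± 0.06 SE, adjusted p = 1.65e-10 by limma). It stepped down from GFP through FXRα1 to FXRα3. Insig2, which holds SREBP in the endoplasmic reticulum, differed by -0.45 (adjusted p = 4.75e-07 by limma), and Abcb4, the phospholipid exporter of the canaliculus, differed by -0.43 (adjusted p = 0.000195 by limma). Apoa1, the main HDL protein, was the higher one at 0.17 (adjusted p = 0.00564 by limma).

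Nr0b2 read 4.24, 4.20 and 4.14 with FXRα3, 4.52, 4.86 and 4.54 with FXRα1 and 4.75, 4.60 and 4.61 with GFP, all under the median of 4.92 to 4.98 over all probe sets of these 6 arrays. Its difference of -0.44 ± 0.13 (adjusted p = 0.034 by limma) lost the call without FXRα1 replicate 2 (0.117) and without FXRα3 replicate 1, 2 or 3 (0.076, 0.0989 and 0.104). It also lost it with arrays centred on the 75th percentile (0.0998). Slc51a and Slc51b, the subunits of the basolateral bile acid exporter, differed by 0.06 ± 0.11 and -0.42 ± 0.15 (adjusted p = 0.842 and 0.113 by limma). Cyp7a1, the first enzyme of bile acid synthesis, read 3.04 to 3.22 with FXRα3 and 3.08 to 3.23 with FXRα1, near the bottom of the scale in both (0.00 ± 0.08 SE, adjusted p = 0.997 by limma). Cyp8b1, which sets the cholic acid share, read 6.11 to 6.47 and 6.41 to 6.75 (-0.27 ± 0.11 SE, adjusted p = 0.172 by limma).

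Of 21 measured hepatobiliary transporters, 4 were lower with FXRα3 (19.0%), led by Abcb11 and Abcb4. That count was 2 without FXRα3 replicate 1, where Abcc2, the conjugate export pump, lost its call (-0.18 in all arrays, adjusted p = 0.00749; 0.0762 without that array, by limma). Of 17 genes of bile acid synthesis and conjugation, 2 were lower (11.8%, against 4.65% of all genes). With the dimmest 50% of genes left out, 2 of 12 were lower, beside 1035 of 9410 genes. Only 1 was lower when any of FXRα1 replicates 1, 2 and 3 or FXRα3 replicates 2 and 3 was left out. Hsd17b4, the peroxisomal enzyme of side chain shortening, differed by -0.38 ± 0.05 (adjusted p = 5.75e-05 by limma).

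In the list of fatty acid and triglyceride synthesis, 7 of 24 measured members were lower with FXRα3 (29.2%, against 4.65% of all genes) and 17 did not pass, with a median of -0.10. Its members were bright, with a median level of 9.24 with FXRα3 against 5.65 over all genes. With the dimmest 50% of genes left out, 7 of 23 were lower, beside 1035 of 9410 genes. Mlxipl, the glucose-sensing factor ChREBP, read 8.81, 8.83 and 8.86 with FXRα3 and 9.38, 9.22 and 9.33 with FXRα1, with GFP between at 8.97 to 9.16 (-0.47 ± 0.06 SE, adjusted p = 3.25e-05 by limma). Fasn, fatty acid synthase, differed by -0.30 (adjusted p = 0.000383 by limma) and Thrsp, a lipogenic regulator, by -0.55 (adjusted p = 0.0037 by limma). Gpam, the first enzyme of triglyceride assembly, was at -0.23 (adjusted p = 0.00332 by limma), a call it lost with arrays centred on the 75th percentile (0.0559).

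Plin2, the main droplet coat of hepatocytes, read 11.63, 11.58 and 11.63 with FXRα3, 12.03, 12.03 and 12.06 with FXRα1 and 12.28, 12.29 and 12.25 with GFP. The 3 groups were apart, in the order FXRα3, FXRα1, GFP from low to high (-0.43 ± 0.03 SE, adjusted p = 9.86e-09 by limma). Plin5, the droplet protein that contacts mitochondria, differed by -0.51 ± 0.11 (adjusted p = 0.00373 by limma). In all, 4 of 23 genes of lipolysis and lipid droplets were lower (17.4%, against 4.65% of all genes). The count was 2 without FXRα1 replicate 3, FXRα3 replicate 1 or FXRα3 replicate 3.

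In fatty acid oxidation, 5 of 30 measured genes were lower (16.7%, against 4.65% of all genes) and 1 was higher (3.33%, against 2.21%). The median was -0.09. Cpt1a, the gate of fatty acid entry into mitochondria, read 9.02, 9.07 and 9.08 with FXRα3, 9.49, 9.38 and 9.51 with FXRα1 and 9.17 to 9.22 with GFP (-0.40 ± 0.05 SE, adjusted p = 1.12e-05 by limma). Acadm, the medium-chain dehydrogenase, was at -0.19 (adjusted p = 0.0054 by limma) and lost the call with arrays centred on the 75th percentile (0.056). Under that centring the list held 1 lower and 3 higher genes, and without FXRα3 replicate 3 it held 3 lower. The higher gene lost its call without FXRα1 replicate 1 or any 1 of the FXRα3 arrays. Cholesterol synthesis and uptake had 2 higher (11.1%) and 1 lower (5.56%) of 18. Nsdhl, a sterol dehydrogenase, was the firmest at 0.28 ± 0.05 (adjusted p = 0.000474 by limma). Without FXRα3 replicate 2 this list had 1 higher, and the lower gene lost its call without FXRα1 replicate 3 or FXRα3 replicate 2 or 3.

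Of 32 measured genes of amino acid catabolism, 10 were lower with FXRα3 (31.2%, against 4.65% of all genes) and 1 was higher, with a median of -0.10, and the lower count stayed at 8 to 14 when single arrays were left out. Kynu, kynureninase of tryptophan breakdown, read 7.87, 7.77 and 7.38 with FXRα3, 8.56, 8.52 and 8.62 with FXRα1 and 8.76, 8.73 and 8.60 with GFP, so that only FXRα3 was well below GFP (-0.90 ± 0.09 SE, adjusted p = 1.74e-06 by limma). Hgd, the homogentisate oxidase of tyrosine breakdown, read 5.71, 5.61 and 5.49 with FXRα3, 6.58, 6.17 and 6.67 with FXRα1 and 5.24 to 5.59 with GFP (-0.87 ± 0.13 SE, adjusted p = 9.69e-05 by limma). The others named were Gpt, alanine aminotransferase, at -0.62, Ftcd of histidine breakdown at -0.54 and Cbs of transsulfuration at -0.34 (adjusted p = 7.89e-05, 7.92e-07 and 0.000562 by limma). Fah, the last enzyme of tyrosine breakdown, was the higher one at 0.30 (adjusted p = 0.00113 by limma), so Hgd and Fah of a single pathway differed in opposite directions.

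In glucose metabolism, 5 of 20 genes were lower with FXRα3 (25%, against 4.65% of all genes), with a median of -0.18. Gckr, the glucokinase regulator, read 8.48, 8.34 and 8.46 with FXRα3, 8.92, 8.85 and 9.06 with FXRα1 and 8.0 to 8.07 with GFP (-0.52 ± 0.09 SE, adjusted p = 0.000383 by limma). Pygl, liver glycogen phosphorylase, was at -0.28 (adjusted p = 0.0049 by limma). The count rested on single arrays: it was 3 without FXRα1 replicate 1, 2 without FXRα1 replicate 3 or FXRα3 replicate 2, and 9 without FXRα1 replicate 2.

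Several transcription factors that define hepatocytes were lower with FXRα3. Of 17 members of that list, 5 were lower (29.4%, against 4.65% of all genes) and 1 was higher (5.88%, against 2.21%). The median was -0.14. The lower count was 4 without FXRα1 replicate 1 or 3 or any 1 of the FXRα3 arrays. The higher call was lost without FXRα3 replicate 1. Cebpa, a factor of hepatocyte differentiation, read 7.18, 7.11 and 7.21 with FXRα3, 7.87, 7.67 and 7.91 with FXRα1 and 7.83, 7.91 and 7.91 with GFP. FXRα3 thus stood below both other groups, which lay together (-0.65 ± 0.07 SE, adjusted p = 1.96e-06 by limma). Hnf4a, a master factor of hepatocyte genes, read 9.73, 9.81 and 9.75 with FXRα3, 10.18, 10.11 and 10.26 with FXRα1 and 9.01, 9.10 and 9.16 with GFP. Here both isoforms were above GFP, FXRα1 more so (-0.42 ± 0.05 SE, adjusted p = 1.42e-05 by limma). Foxa1, a pioneer factor of liver, was at -0.40 and the orphan receptor Nr2f6 at -0.34 (adjusted p = 0.00123 and 0.00302 by limma).

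Among 12 markers of hepatocytes, 3 were higher with FXRα3 (25%, against 2.21% of all genes) and Hnf4a alone was lower (8.33%, against 4.65%). The higher ones were Apoa1 (0.17), the thyroxine carrier Ttr (0.25) and the plasma protein Ahsg (0.19). Ttr lost its call without FXRα3 replicate 1 (adjusted p = 0.0792 by limma), and Ahsg, whose arrays overlapped between the groups, lost it without FXRα1 replicate 1 or 3 or FXRα3 replicate 1 or 2 (up to 0.213), so 1 marker was higher without FXRα3 replicate 1. The part of hepatocyte share in the other results was not tested.

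Among other nuclear receptors and coregulators, 6 of 27 were lower (22.2%, against 4.65% of all genes), with a median of -0.16. Of the 27, 23 were below 0, beside 9971 of the 18820 genes tested. Pparg, a lipogenic receptor, read 8.05, 7.97 and 7.88 with FXRα3, 8.39, 8.36 and 8.52 with FXRα1 and 8.29 to 8.4 with GFP (-0.46 ± 0.07 SE, adjusted p = 7.52e-05 by limma). Rarb, a retinoic acid receptor, was at -0.47 (adjusted p = 0.00695 by limma). The count was 2 without FXRα1 replicate 1 or FXRα3 replicate 1 or 2, 3 without FXRα1 replicate 3, and 9 at most, without FXRα1 replicate 2. Of 22 genes of xenobiotic metabolism, 2 were lower (9.09%) and 1 was higher (4.55%, against 2.21% of all genes). There was 1 lower without FXRα3 replicate 1, none higher without FXRα3 replicate 2 and 2 higher without FXRα1 replicate 2. Nr1i2, the xenobiotic receptor PXR, was counted in that list. It read 5.68, 5.5 and 5.70 with FXRα3, 6.61, 6.28 and 6.76 with FXRα1 and 6.08 to 6.29 with GFP (-0.93 ± 0.11 SE, adjusted p = 8.98e-06 by limma). Of 28 NRF2 targets and glutathione genes, 6 were lower (21.4%) and 2 were higher (7.14%). Besides Osgin1 the lower ones were led by the glutathione transferases Gstm4 (-0.53, adjusted p = 1.94e-06 by limma) and Gsta4 (-0.40, adjusted p = 0.00137 by limma) and by sulfiredoxin, Srxn1 (-0.27, adjusted p = 0.00438 by limma). The higher count there was 0 without FXRα3 replicate 3, 1 without FXRα1 replicate 1 or 3 or FXRα3 replicate 2, and 4 without FXRα1 replicate 2.

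In the cell cycle list, 11 of 33 measured members were higher with FXRα3 (33.3%, against 2.21% of all genes), 1 was lower and 21 did not pass, with a median of 0.20. Cdk1, the kinase of mitotic entry, read 7.94, 8.03 and 8.12 with FXRα3, 7.30, 7.41 and 7.32 with FXRα1 and 7.48, 7.39 and 7.53 with GFP. FXRα3 was thus above both other groups (0.68 ± 0.08 SE, adjusted p = 6.09e-06 by limma). E2f8 read 6.36, 6.29 and 6.73 with FXRα3 and 5.68, 5.24 and 5.92 with FXRα1, and E2f7 read 6.30, 6.38 and 6.81 and then 5.90, 5.32 and 5.89. Both E2F repressors were spread more widely among arrays than Cdk1, with adjusted p = 0.00304 and 0.00344 by limma. Ccne1 and Ccnd3, cyclins of the G1 phase, were at 0.38 and 0.35 (adjusted p = 0.00259 and 0.0037 by limma). Pcna, the DNA polymerase clamp, was at 0.20 (adjusted p = 0.00253 by limma) and at 0.21 in a second probe set. Cdc25a, an activator of CDKs picked out as the lower member, was at -0.31 (adjusted p = 0.00427 by limma). Without FXRα3 replicate 3, which read highest of the 6 arrays for Cdk1, E2f8 and E2f7, 6 members were higher.

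Among 32 measured chemokines, cytokines and NF-kB targets, 6 were higher with FXRα3 (18.8%, against 2.21% of all genes) and 25 did not pass. The macrophage growth factor Csf1 was the 1 lower member (3.12%, against 4.65%), and the median was 0.08. Besides Cxcl2 and Ccl2, Ccl7, a monocyte chemokine, read 5.89, 5.84 and 5.62 with FXRα3 and 5.15, 5.01 and 5.04 with FXRα1 (0.72 ± 0.12 SE, adjusted p = 0.000313 by limma). Cxcl1, a neutrophil chemokine, read 8.54, 8.57 and 8.58 with FXRα3, 8.09, 8.04 and 8.18 with FXRα1 and 7.93 to 8.19 with GFP (0.46 ± 0.07 SE, adjusted p = 8.56e-05 by limma). Tnfaip3, the NF-kB inhibitor A20, was at 0.40 (adjusted p = 0.00065 by limma), with both isoforms below GFP, at 7.68 to 7.73, 7.23 to 7.35 and 7.99 to 8.02. The macrophage markers averaged 4.27 to 4.38 with FXRα3 and 4.25 to 4.29 with FXRα1, and none of the 14 passed (1 did at an unadjusted p under 0.05 by limma). The call of Csf1 (-0.27, adjusted p = 0.0253 by limma), which was picked out as the lower member, was lost without FXRα1 replicate 1 or 3 or FXRα3 replicate 1 or 2 (up to 0.148 by limma).

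In the acute phase list, 3 of 22 genes were higher (13.6%, against 2.21% of all genes) and 1 was lower (4.55%, against 4.65%). The lower call was lost without FXRα1 replicate 3 or FXRα3 replicate 2. Apcs, serum amyloid P, read 9.42, 9.55 and 9.37 with FXRα3, 8.78, 8.99 and 8.81 with FXRα1 and 9.46 to 9.57 with GFP, so that FXRα1 was the group below GFP (0.58 ± 0.06 SE, adjusted p = 3.22e-06 by limma). Lcn2, the iron-sequestering lipocalin, was at 0.21 (adjusted p = 0.000607 by limma). Among 31 complement and coagulation genes, F10, coagulation factor X, was at -0.34 and C8g at 0.22 (adjusted p = 0.00253 and 0.00591 by limma), and no other passed. That was 3.23% of the list each way, near the shares over all genes. In this list 2 were higher without FXRα1 replicate 3 or FXRα3 replicate 3.

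Of 36 measured genes read as output of ERK signalling, 6 were higher (16.7%, against 2.21% of all genes) and 1 was lower (2.78%, against 4.65%). The other 29 did not pass, and the median was 0.06. In this list, 3 were higher without FXRα3 replicate 3 and 2 lower without FXRα1 replicate 2. Dusp5, a nuclear ERK phosphatase, read 8.34, 8.47 and 8.54 with FXRα3 and 7.99, 7.88 and 7.96 with FXRα1 (0.50 ± 0.08 SE, adjusted p = 0.000278 by limma). Ier3, an immediate early gene, was at 0.41 (adjusted p = 0.000279 by limma). Dusp6, the cytoplasmic ERK phosphatase, was the one called lower, at 7.66, 7.68 and 7.77 with FXRα3, 8.2, 8.10 and 8.41 with FXRα1 and 8.34 to 8.49 with GFP (-0.53 ± 0.08 SE, adjusted p = 9.07e-05 by limma).

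In the BMP and TGF beta list, 6 of 35 genes were lower (17.1%, against 4.65% of all genes) and 2 were higher (5.71%, against 2.21%). Tgfb1, the ligand TGF beta 1, read 9.2, 9.12 and 9.15 with FXRα3, 8.63, 8.49 and 8.61 with FXRα1 and 9.08 to 9.22 with GFP, so FXRα3 lay with GFP and FXRα1 below both (0.58 ± 0.07 SE, adjusted p = 1.09e-05 by limma). Id2, a BMP target, was at -0.49 ± 0.10 (adjusted p = 0.00193 by limma), the same direction as Bmp7. The lower count was 3 without FXRα1 replicate 1 or 3 or FXRα3 replicate 1. The higher count was 1 without FXRα1 replicate 1 or 2 or FXRα3 replicate 2 or 3.

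Cytoskeletal and surface genes were split. Of 26 actin and YAP genes, 4 were higher (15.4%, against 2.21% of all genes) and 3 were lower (11.5%, against 4.65%). Flnc and its partner Rflnb (-0.87, adjusted p = 1.55e-06 by limma) were lower. Filamin A, Flna, was higher by 0.24 (adjusted p = 0.00322 by limma) and calponin 2, Cnn2, by 0.45 (adjusted p = 6.19e-05 by limma). Without FXRα1 replicate 2, 5 of these genes were lower. Among 27 adhesion genes, the tight junction gene Cldn4 (0.59), Itgb6 (0.73) and Itga3 (0.28) were higher and the fibronectin receptor subunit Itga5 (-0.41) was lower, with adjusted p from 3.19e-06 to 0.00255 by limma. That was 11.1% higher and 3.7% lower. Cldn4 read 10.46, 10.70 and 10.56 with FXRα3 and 9.92, 10.11 and 9.93 with FXRα1, beside 9.88 to 10.12 with GFP. Of 17 intermediate filament genes, 3 were higher (17.6%) and 2 were lower (11.8%). Krt19, a keratin of bile ducts, read 11.04 to 11.23, 10.66 to 10.73 and 9.26 to 9.44 with FXRα3, FXRα1 and GFP (0.43 ± 0.09 SE, adjusted p = 0.00361 by limma). It was the only one of 10 cholangiocyte markers to pass (10%), and the part of such cells was not tested. Vim, vimentin, was at 0.27, the keratin Krt23 at -0.59 and nestin, Nes, at -0.55 (adjusted p = 6.04e-05, 2.3e-05 and 0.00248 by limma).

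In the matrix list, 2 of 28 genes were higher (7.14%, against 2.21% of all genes) and 3 were lower (10.7%, against 4.65%). The urokinase receptor Plaur was at 0.30, the laminin chain Lama5 at -0.51 and the membrane protease Mmp14 at -0.32 (adjusted p = 0.00017, 0.00275 and 0.00684 by limma). The higher count was 1 without FXRα1 replicate 1 or 3 or FXRα3 replicate 1 or 2. Lce1d was the only one of 22 cornified envelope genes to pass (4.55%). Of 26 genes of the integrated stress and unfolded protein response, 5 were higher (19.2%) and 3 were lower (11.5%). The serine synthesis enzyme Phgdh was at 0.32, the mTORC1 inhibitor Ddit4 at 0.35 and the glutathione-degrading Chac1 at 0.30 (adjusted p = 0.000312, 0.000463 and 0.00514 by limma). The brightest Phgdh probe set passed, while its 2 dimmer ones read 0.52 and 0.27 (adjusted p = 0.301 and 0.0809 by limma over all probe sets). The higher count of this list was 3 without FXRα1 replicate 1 or 3 or FXRα3 replicate 2 or 3, and the lower count 1 without FXRα1 replicate 3 or FXRα3 replicate 1. Of 22 p53 targets, 2 were lower (9.09%, against 4.65% of all genes), among them Gadd45g (-0.43, adjusted p = 0.00302 by limma). The count was 1 without FXRα1 replicate 3 and 4 without FXRα1 replicate 2.

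Apolipoproteins and lipoprotein genes had 2 higher (8.7%, against 2.21% of all genes) and 4 lower (17.4%, against 4.65%) of 23. The higher count was 1 without FXRα1 replicate 1 or 3 or FXRα3 replicate 1 or 2, and 5 without FXRα1 replicate 2. The lower count was 2 without FXRα1 replicate 3 or FXRα3 replicate 3 and 6 at most. The interferon response (25 genes) and the respiratory chain (29 genes) had no call by limma. At an unadjusted p under 0.05, 1 interferon gene was higher and 1 lower, and 2 respiratory chain genes were higher and 4 lower. Over the other limma settings described under the processing, at most 1 gene of either list was called in either direction.

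**Figure D3:**
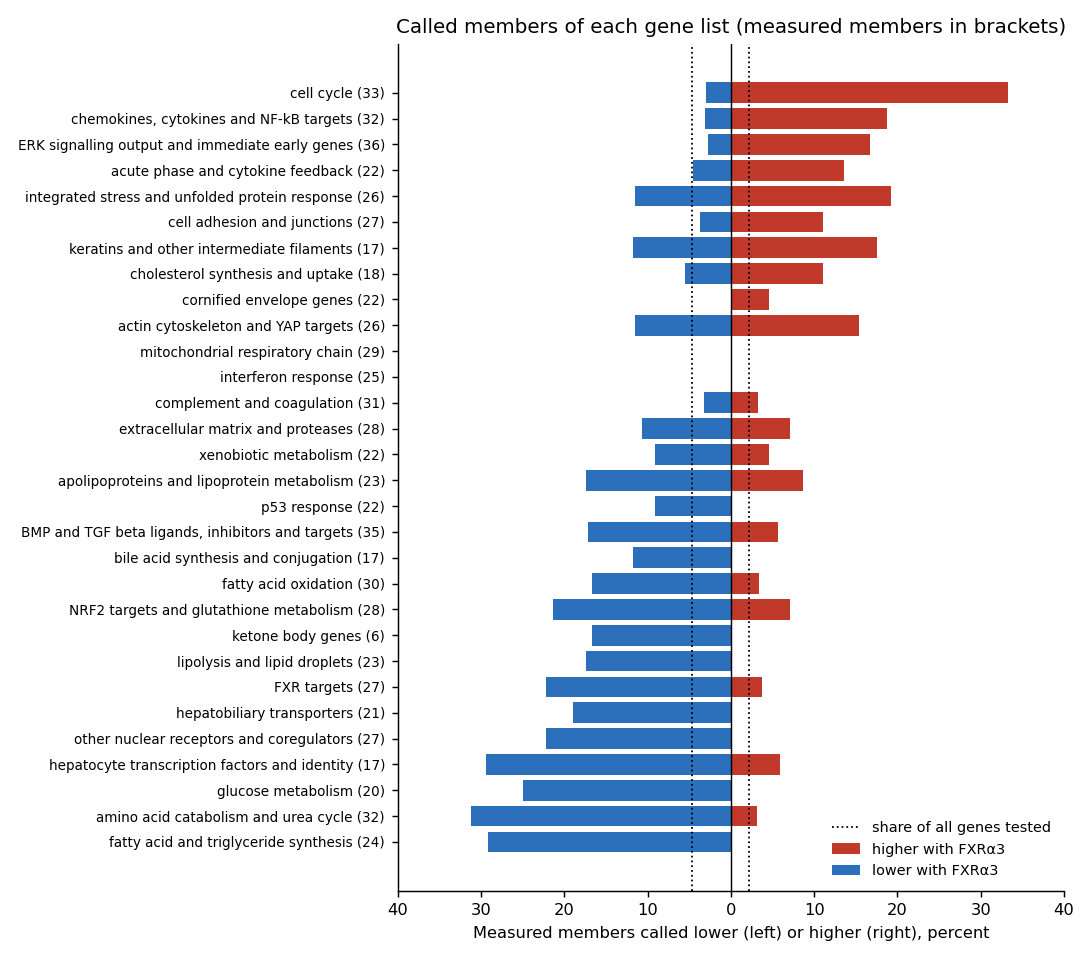
Bars give the percent of each list's measured members (number in brackets) that were higher (right, red) or lower (left, blue) with FXRα3 at an adjusted p under 0.05, and dotted lines mark the shares over all genes tested, 2.21% and 4.65%. The lines count dim genes too, which were called less often than bright ones. Cell cycle reaches furthest to the right at 33.3% and amino acid catabolism furthest to the left at 31.2%.

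**Figure D4:**
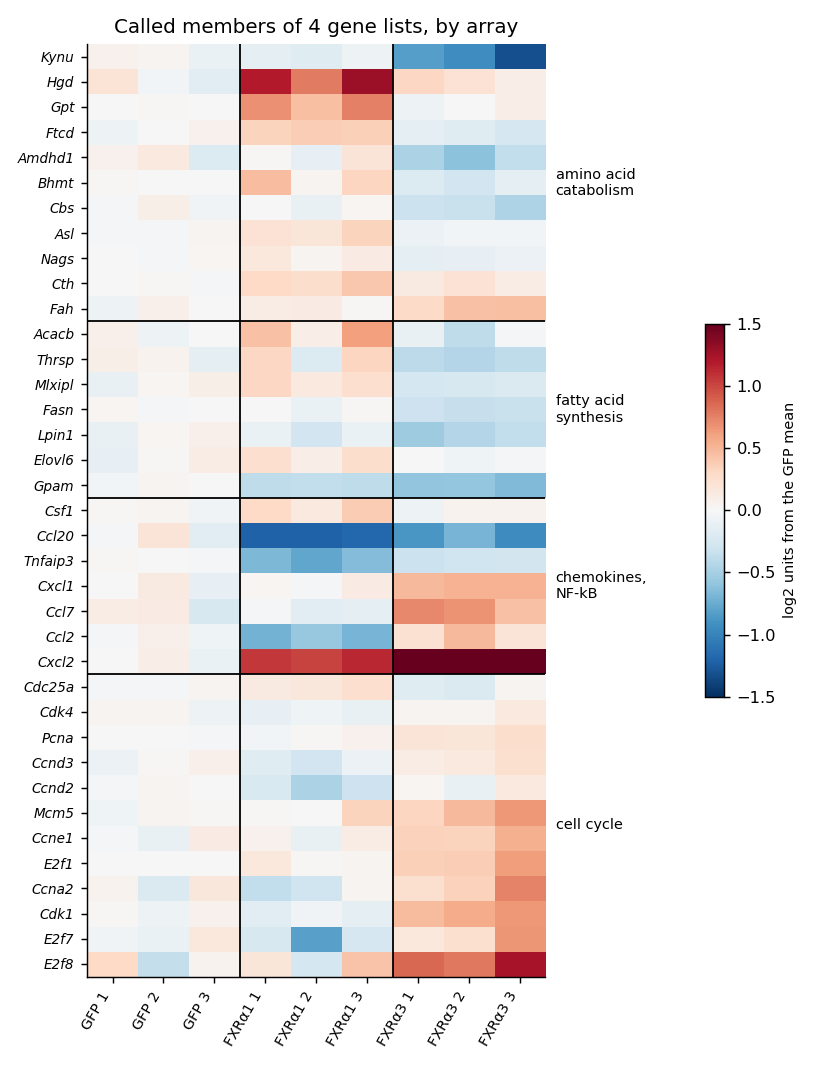
Rows are the 37 called members of 4 lists, columns are the 9 arrays of GFP, FXRα1 and FXRα3, and colour is the array value minus the GFP mean in log2 units, with the scale ending at 1.5 either way. Most cell cycle rows are redder in FXRα3 than in both other groups, whereas Hgd, Gpt and Acacb are reddest in FXRα1 and near the GFP mean in FXRα3.

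The same pair of N-termini was then read without the insert, as FXRα4 against FXRα2, from 6 arrays outside the FXRα3 and FXRα1 means. Those arrays did enter the estimate of each gene's spread, which both comparisons share. A gene of small spread is thus more readily called in both, so the overlaps of calls do not come from independent tests. How far this raises the overlaps was not tested. Between FXRα4 and FXRα2, 4456 genes (23.7%) differed, 2205 higher (11.7%) and 2251 lower (12%) with the longer N-terminus. Of the 416 genes higher with FXRα3 over FXRα1, 200 (48.1%) were also higher with FXRα4 over FXRα2, which is 9.07% of the genes higher there, and 36 (8.65%) were lower. Of the 875 genes lower with FXRα3, 437 (49.9%) were also lower with FXRα4, which is 19.4% of the genes lower there, and 77 (8.8%) were higher. Across all genes the 2 differences correlated at r = 0.306 (Spearman 0.178), a description over genes that share probes and hybridisation. A test of the difference between the 2 differences (the interaction) called 2422 genes (12.9%), with 1059 positive (5.63%) and 1363 negative (7.24%). It called 124 of the 416 higher (29.8%) and 345 of the 875 lower genes (39.4%), counts that are not independent of the choice of these genes by FXRα3 and FXRα1 arrays.

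Some of the genes that differed most between FXRα3 and FXRα1 differed about as much between FXRα4 and FXRα2. Uox was at -1.45 and -1.6, Urad at -1.59 and -1.40, Flvcr2 at -1.51 and -1.25, Adssl1 at -1.30 and -1.28 and Marcks at 1.00 and 1.36, and for none of these 5 did the interaction pass (adjusted p from 0.162 to 0.983 by limma). A p that misses the threshold does not show that the differences are equal. For Uox the interaction was 0.15 ± 0.17 (SE) and for Adssl1 -0.01 ± 0.17 (SE). Abcb11 differed in both pairs but more with the insert, at -2.52 against -1.49, where the FXRα2 arrays read 8.41 to 8.73 and the FXRα4 arrays 7.03 to 7.08 (interaction -1.03 ± 0.18 SE, adjusted p = 0.000416 by limma).

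For other genes the difference was larger with the insert than without it. Acot4 was at -1.34 with and -0.01 without the insert (interaction -1.33 ± 0.14 SE, adjusted p = 1.14e-06 by limma). Plin2 was at -0.43 and -0.07 (interaction -0.36, adjusted p = 9.69e-06), Apcs at 0.58 and -0.12 (0.70, adjusted p = 1.89e-05), Kynu at -0.90 and -0.22 (-0.67, adjusted p = 0.00143) and Lce1d at 0.91 and -0.15 (1.06, adjusted p = 0.000222), all by limma. Among the chemokines, Ccl2 was at 0.96 and 0.24, Cxcl2 at 1.15 and 0.47 and Ccl7 at 0.72 and 0.01, and the interaction passed for all 3 (adjusted p = 9.81e-06, 0.000553 and 0.00545 by limma).

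The reverse was also seen, with a difference larger without the insert. Gpd1, the glycerol phosphate dehydrogenase of triglyceride assembly, read 8.99, 8.83 and 8.96 with FXRα3, 9.29, 9.16 and 9.45 with FXRα1, 8.28, 8.18 and 8.07 with FXRα4 and 9.97, 9.86 and 9.91 with FXRα2. The longer N-terminus went with less Gpd1 in both pairs, by -0.37 with and -1.74 without the insert (interaction 1.36, adjusted p = 5.16e-08 by limma). Slc8b1, a mitochondrial sodium/calcium exchanger, was at -0.51 and -2.0 (1.5, adjusted p = 5.2e-08), Gsta4 at -0.40 and -1.59 (1.19, adjusted p = 1.35e-07), Nr1i2 at -0.93 and -1.95 (1.03, adjusted p = 0.000123) and Hgd at -0.87 and -1.89 (1.02, adjusted p = 0.000451), all by limma. Cyp8b1, with no call between FXRα3 and FXRα1, was at -1.59 between FXRα4 and FXRα2 (interaction 1.32, adjusted p = 5.16e-06 by limma). Elovl4 and Podxl were higher with the longer N-terminus in both pairs and more so without the insert, at 0.80 and 1.84 and at 0.76 and 1.54.

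With predicted genes left out, 112 genes were called in opposite directions in the 2 pairs and called by the interaction. Opposite calls make an interaction call likely, so it adds no separate evidence. Flnc was lower with FXRα3 (-1.16) and higher with FXRα4 (0.32), where the FXRα4 arrays read 9.49 to 9.68 and the FXRα2 arrays 9.13 to 9.50 (interaction -1.48, adjusted p = 5.2e-08 by limma). Orm2, an acute phase carrier protein, read 9.37, 9.24 and 9.2 with FXRα3 and 8.98, 9.06 and 8.96 with FXRα1, and 10.04, 10.20 and 10.12 with FXRα4 and 11.38, 11.29 and 11.09 with FXRα2. Its differences were 0.27 and -1.13 (interaction 1.40, adjusted p = 2.06e-08 by limma), and the smaller of these lost its call without FXRα1 replicate 1 or 3 or FXRα3 replicate 1 or 2 (adjusted p up to 0.148). The calcium-binding Cpne2 was alike at 0.21 and -0.85 (interaction 1.06, adjusted p = 2.56e-08), and lost the first call without FXRα1 replicate 1 or FXRα3 replicate 1 or 2 (up to 0.158). Pparg was at -0.46 and 0.38, Nes at -0.55 and 0.86, Tgfb1 at 0.58 and -0.23, Cxcl1 at 0.46 and -0.34, Ddit4 at 0.35 and -0.43 and Chac1 at 0.30 and -0.51, with interaction adjusted p from 1.48e-06 to 9.72e-06 by limma.

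By list, the cell cycle had 11 of 33 genes higher and 1 lower with FXRα3 and 20 higher and 3 lower with FXRα4, and the interaction called 10 of the 33. Amino acid catabolism had 10 of 32 genes lower with FXRα3 and 18 with FXRα4, and the interaction called 12 of the 32. The FXR targets had 6 and 13 of 27 lower, and fatty acid and triglyceride synthesis 7 and 14 of 24. Acute phase genes had 3 higher and 1 lower with FXRα3 and 7 of 22 lower with FXRα4. Adhesion genes had 3 higher and 1 lower with FXRα3, and 2 higher and 14 lower of 27 with FXRα4. Since FXRα4 against FXRα2 gave 4456 calls over all genes and FXRα3 against FXRα1 gave 1291, these counts are set beside different backgrounds. Over all genes, 11.7% were higher and 12% lower with FXRα4, against 2.21% and 4.65% with FXRα3. The interaction called 12.9% of all genes. A larger count with FXRα4 is therefore not by itself a stronger difference of the list.

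**Figure D5:**
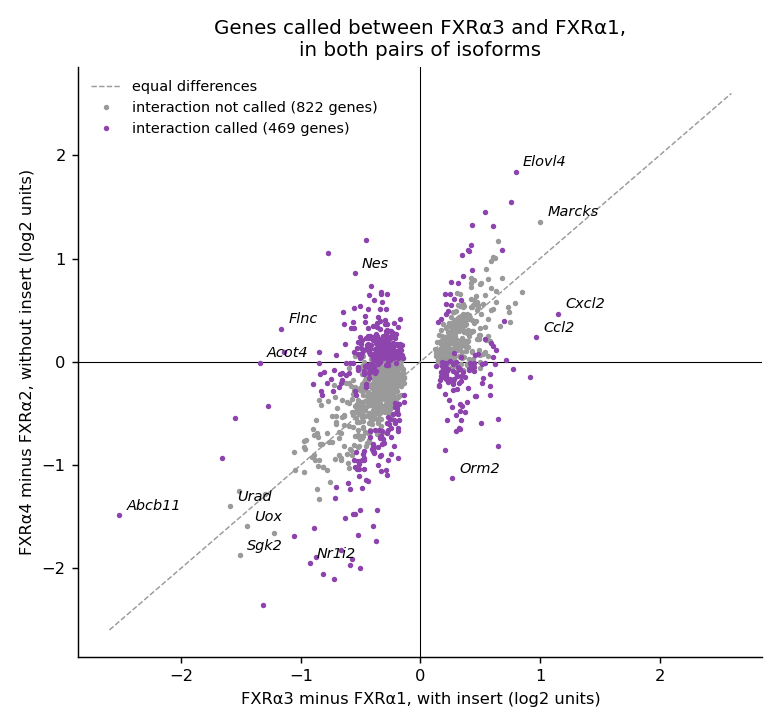
Each point is 1 of the 1291 genes called between FXRα3 and FXRα1, with that difference on the x axis and FXRα4 minus FXRα2 on the y axis, in log2 units; the 469 genes called by the interaction are purple and the dashed line marks equal differences. Marcks, Urad, Uox and Sgk2 lie near the line, Acot4 near a y value of 0, and Flnc, Nes and Orm2 in the quadrants of opposite sign.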

How the data were processed

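RNA of hepatocyte cultures, whose number is not given, was labelled as sense cDNA and hybridised to the 15 Affymetrix arrays in 1 colour, per the labels' protocols. The deposited log2 values were made by the authors with Affymetrix Expression Console 1.1 and PLIER, per the submitters' processing notes. The log base was read from the range of the values (1.93 to 13.8), and the genome build of the annotation is not given in the sources used here. Of 35556 probe sets, 21218 had 1 symbol, 1881 several and 12457 none. The brightest probe set of each symbol gave 18820 genes, and 1386 genes had more than 1.

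All 15 arrays entered 1 limma fit (limma 3.58.1, R 4.3.3) with 5 group means, eBayes with a mean-variance trend and Benjamini-Hochberg adjustment over all genes, at 0.05. Text genes include the 12 with the largest called change each way whose FXRα3 and FXRα1 arrays do not overlap, passing over predicted genes. Called members of the lists (up to 6 a list), 6 interaction genes and a few fixed FXR genes were added. Others are said to be picked after their values were seen. The genes, lists and comparisons were chosen with earlier results of these data known. Same-numbered FXRα1 and FXRα3 arrays deviated together at r of -0.04, 0.18 and 0.37, and differently numbered ones at -0.41 to 0.32. The numbers were not taken to pair them, since replicate 1 did not deviate together. All 3 same-numbered correlations passed 0.1 for FXRα2 and FXRα4 (0.13, 0.18 and 0.43), against -0.34 to 0.17 for differently numbered ones. There FXRα2 replicate 2 deviated with FXRα4 replicate 1 (0.17) about as with replicate 2, so the values do not settle a pairing. The same-numbered correlations also passed 0.1 for FXRα3 with FXRα2 (0.18, 0.20 and 0.42) and with FXRα4 (0.33, 0.15 and 0.36). FXRα2 replicate 2 with FXRα3 replicate 1, however, gave 0.22. The replicate numbers may thus mark a source shared across isoform groups, FXRα3 included, which was not tested. The fit stayed without the block, whose counts are given in the closing section. The alternatives were other variance models, filters, scalings, probe set rules, a fold minimum, a replicate block and leaving out each array. Depth does not apply to arrays; 3 per group limit the precision. Figures were drawn with matplotlib 3.10.9.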

Additional observations from a re-analysis of the deposited data

Results flagged for a closer look

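The difference between the N-termini itself differed with the insert, by limma's interaction of the 4 isoform groups, for 2422 genes, of which those named in the text are given here in log2 units as FXRα3 minus FXRα1 less FXRα4 minus FXRα2. Genes named for their FXRα3 and FXRα1 values were not chosen independently of it. The interaction was positive at Slc8b1 1.5, Orm2 1.40, Gpd1 1.36, Cyp8b1 1.32, Tnfrsf22 1.20 and Gsta4 1.19. Values above 0 followed for Tnfrsf23 1.1, Lce1d 1.06, Cpne2 1.06, Nr1i2 1.03, Hgd 1.02 and Dppa3 0.84. It was Tgfb1 0.81, Chac1 0.81, Cxcl1 0.80, Ddit4 0.78, Ccl2 0.73 and Ccl7 0.70. Next came Apcs 0.70, Cxcl2 0.69, Slc16a3 0.63, Lama5 0.59, Cnn2 0.49 and Foxa1 0.46. Smaller positive values were Fah 0.44, Cpt1a 0.44, Ier3 0.43, Cldn4 0.41, Urah 0.39 and Cbs 0.39. The list went on with Ahsg 0.31, Hsd17b4 0.28, Hnf4a 0.25 and Lcn2 0.23.

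The interaction was negative at Flnc -1.48, Nes -1.41, Acot4 -1.33, Tmem98 -1.23, Elovl4 -1.04 and Abcb11 -1.03. Values below 0 followed for Nppb -1.0, Acsm5 -0.85, Pparg -0.84, Podxl -0.79, Bmp7 -0.72 and Kynu -0.67. Then came Dusp6 -0.67, Acot6 -0.67, Krt23 -0.57, Gckr -0.47, Krt19 -0.46 and Mmp14 -0.41. Smaller negative values were Cdk1 -0.40, Plin2 -0.36, Mlxipl -0.36, Nr1h4 -0.33, Ftcd -0.26 and Abcc2 -0.22. The remaining negative values were Insig2 -0.21. No explanation of these differences was tested.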

How the results depend on the processing

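Among the 116 genes checked, no setting turned the direction of a gene called in the main fit or under that setting. Against 1291 genes called between FXRα3 and FXRα1, array weights gave 2046, a fold minimum of 1.5 gave 18 and the replicate block gave 2117, which included all 1291. With only the FXRα3 and FXRα1 arrays in the fit, 906 were called, 288 higher and 618 lower. Without the variance trend 931 were called, and with every probe set tested 929 of 35556 probe sets. With the replicate block, FXRα4 against FXRα2, whose same-numbered arrays deviate together, gave 5196 genes against 4456, and the interaction 3343 against 2422. Leaving out single arrays gave 780 to 1926. For FXRα4 against FXRα2 the fold minimum gave 222 and single arrays 3610 to 4256, and for the interaction 68 and 1863 to 2836. Of the 116 genes, 96 lost the call under the fold minimum, 9 with every probe set tested, 8 without the variance trend, 5 with arrays centred on the 75th percentile and 1 to 9 without single arrays. The replicate block changed none of the 116 calls. The cause of these changes was not tested, beyond fewer arrays where 1 was left out and the stricter demand of a fold minimum. Probe sets near the bottom of the scale, such as Cyp7a1, limit what could be read.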

Other observations

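A few gene groups outside the lists were looked at after the values were seen, and are given as values with no test of the group, beside shares over all genes of 4.65% lower and 2.21% higher. Of 10 acyl-CoA thioesterases, 4 were lower with FXRα3 and none higher, among them Acot4 and Acot6 (-0.42). Of 8 genes of the kynurenine pathway, 3 were lower, with Acmsd, which turns the pathway away from NAD, at -0.96 (adjusted p = 1.91e-05 by limma) beside Kynu. Of 10 monocarboxylate transporters, 3 were lower, led by the lactate exporter Slc16a3 at -1.05 (adjusted p = 1.96e-06 by limma). Tmem98, a membrane protein, was at -1.14 (adjusted p = 1.23e-07 by limma) with the insert and at 0.09 without it.

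Of 33 genes taken only because their symbols begin with "H2-", 4 were lower. H2-Q2 and H2-Q6 were at -1.05 and -0.89 with the insert and at -1.05 and -0.91 without it. They belong to a family of related genes, and whether their probe sets read each other was not tested. The decoy receptors Tnfrsf22 and Tnfrsf23 were higher with FXRα3, at 0.65 and 0.51, and lower with FXRα4, at -0.55 and -0.59.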
